A study of Mus musculus with 20 samples.

Results

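The 10 genes described here are the negative feedback genes and ETS-family targets of the RAS-ERK pathway in mouse nerve tumors: the phosphatase genes Dusp4, Dusp5 and Dusp6, the Sprouty genes Spry1, Spry2 and Spry4, the SPRED genes Spred1 and Spred2, and the transcription factor genes Etv4 and Etv5. They were chosen by name, as genes known to answer to ERK activity, and are 10 of the 24062 genes in the deposited table of read counts. All 10 were among the 16589 genes with enough counts to test. Bulk RNA was sequenced from 20 tumors of C57BL/6J mice in which the recombinase DhhCre removes floxed Nf1 (Nf1fl/fl), so no group had intact Nf1. The 12 neurofibroma libraries came from Nf1fl/fl; DhhCre mice. The 2 paraspinal libraries of subgroup 2, the 2 of subgroup 1 and the 4 libraries of GEM-PNST, the nerve sheath tumor of this engineered mouse line, came from mice that also carried Ink4a/Arf+/-. No mouse received a drug, ages are not given in the sources used here, and no label says that each library is a separate animal, so p-values measure only the spread between these samples. In some pairs of libraries the sample codes have a number in common: GEM-PNST 2 with paraspinal subgroup 1 library 1, GEM-PNST 1 with GEM-PNST 4, and neurofibroma 8 with neurofibroma 9. The codes of the 2 paraspinal subgroup 2 libraries, the whole of that subgroup, also share a number and differ in a single letter. Whether such a pair shares an animal or a date is not given in the sources used here. No comparison models these links. With any 1 GEM-PNST or paraspinal library left out, 0 of the 10 genes passed between GEM-PNST and paraspinal tumors in edgeR. DhhCre acts in the Schwann cell lineage, so the other cells of each tumor kept Nf1. The labels call the paraspinal subgroups sub-clusters, and these may have been drawn from the same expression values.

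Neurofibromin, the product of Nf1, switches RAS off, and its loss leaves RAS free to drive the kinases RAF, MEK and ERK. Active ERK induces its own brakes: DUSP phosphatases remove phosphate from ERK, Sprouty proteins dampen receptor signals above RAS, and SPRED proteins bring neurofibromin to the membrane where RAS sits. ETV4 and ETV5 are ETS transcription factors of the PEA3 group, whose genes are switched on by ERK in many tissues and are often read as its output.

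Levels are CPM, read counts relative to the library total, adjusted by a TMM scaling factor per library. Against neurofibroma, 5 of the 10 genes changed in GEM-PNST: Dusp5, Spry1 and Etv4 rose, and Spred2 and Etv5 fell. Of all genes tested there, 73.1% passed the same threshold, 35.0% higher and 38.1% lower (edgeR's quasi-likelihood test, Benjamini-Hochberg adjusted p under 0.05). In paraspinal tumors Dusp5, Spry1 and Etv4 rose against neurofibroma and none of the 10 fell, where 59.4% of all genes passed, 30.2% higher and 29.2% lower. Between GEM-PNST and paraspinal tumors 0 of the 10 passed in edgeR, where 10.2% of all genes passed, 2.48% higher and 7.69% lower, and 1 of the 10, Spred2, was at an unadjusted p under 0.05 (p = 0.025). In GEM-PNST 3 of the 10 (Dusp5, Etv4 and Spred2) did not overlap with neurofibroma, beside 46.5% of all genes, and in paraspinal tumors 2 of the 10 (Dusp5 and Etv4) did not, beside 36.5%. A single test over the 4 groups called Dusp5, Spry1, Spred2 and Etv4, beside 77.1% of all genes. A share of 5 or 3 in 10 is below the share of all genes in both comparisons with neurofibroma. The comparisons with neurofibroma share the same 12 neurofibroma libraries.

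RefSeq promoter windows (GRCm38.p6, from 250 bases before to 50 after a start site) were matched for 7 of the 10 genes, and 4 are shown because these genes rose in both comparisons (Dusp5, Spry1), fell most (Spred2) or are the best known ERK-induced phosphatase gene (Dusp6). Capitals mark CArG boxes, the sequence that serum response factor is known to bind, and the core letters GGAA of ETS sites, written TTCC on the other strand; both strands were searched.
Dusp5: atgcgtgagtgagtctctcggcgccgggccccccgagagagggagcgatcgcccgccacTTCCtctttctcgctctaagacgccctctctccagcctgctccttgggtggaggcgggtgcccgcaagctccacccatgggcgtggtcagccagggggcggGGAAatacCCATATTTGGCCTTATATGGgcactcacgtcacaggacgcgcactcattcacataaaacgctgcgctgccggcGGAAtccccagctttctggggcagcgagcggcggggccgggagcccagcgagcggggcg
Spry1: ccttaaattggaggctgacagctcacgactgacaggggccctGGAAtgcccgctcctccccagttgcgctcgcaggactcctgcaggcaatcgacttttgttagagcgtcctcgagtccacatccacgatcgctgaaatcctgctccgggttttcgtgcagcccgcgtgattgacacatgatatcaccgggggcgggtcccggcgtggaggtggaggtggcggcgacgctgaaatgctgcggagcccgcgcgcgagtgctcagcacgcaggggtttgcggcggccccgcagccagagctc
Dusp6: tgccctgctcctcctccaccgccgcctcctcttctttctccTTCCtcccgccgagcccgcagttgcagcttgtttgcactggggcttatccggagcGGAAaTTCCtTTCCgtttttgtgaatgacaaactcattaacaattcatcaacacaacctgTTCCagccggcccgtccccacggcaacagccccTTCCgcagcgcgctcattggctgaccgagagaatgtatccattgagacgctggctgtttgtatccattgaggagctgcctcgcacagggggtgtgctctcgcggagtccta
Spred2: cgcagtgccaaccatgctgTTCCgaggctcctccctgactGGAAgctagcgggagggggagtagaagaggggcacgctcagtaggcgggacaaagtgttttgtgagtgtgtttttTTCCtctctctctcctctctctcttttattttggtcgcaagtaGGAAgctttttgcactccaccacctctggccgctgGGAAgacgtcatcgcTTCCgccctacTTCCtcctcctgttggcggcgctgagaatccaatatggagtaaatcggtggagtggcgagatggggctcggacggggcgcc
The windows lie at chr19:53528895-53529194 (Dusp5), chr3:37639697-37639996 (Spry1), chr10:99262981-99263280 (Dusp6) and chr11:19924192-19924491 (Spred2), all on the + strand. The Dusp5 window held 2 adjacent CArG boxes, CCATATTTGG at -82 to -73 and CCTTATATGG at -72 to -63 from the start site, and a GGAA from -90 to -87 just before them. A CArG box was in 1.63% of 32851 promoter windows and 2 or more were in 6 of them (0.0183%). ETS cores numbered 3 in the Dusp5 window, 1 in Spry1, 6 in Dusp6 and 7 in Spred2, beside a median of 3 and at least 1 in 96% of all windows. The CRE letters TGACGTCA and the AP-1 letters TGANTCA were in none of the 8 windows of these genes (1.79% and 7.81% of all windows held them). The motifs were chosen with the sequences in view, and a match is a string of letters, not a measured binding site.

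Neurofibroma libraries held 9900759 to 17594164 counts, paraspinal libraries 18474071 to 24314222 and GEM-PNST libraries 16282605 to 22218382. The run prefix of each library's alignment file, in the deposited sample table, was taken as its sequencing run. It puts neurofibromas 1 to 6 in 1 run, called run 1, and 7 to 12 in another, called run 2. The 8 libraries of the other stages carry neither prefix, and whether they share a single run was not checked. Run, Ink4a/Arf genotype and stage cannot be told apart in the comparisons with neurofibroma. The part of run between GEM-PNST and paraspinal tumors was not tested. Each of the neurofibroma runs was therefore also compared alone. Nf1 itself, counted over the whole gene and over all cells of a tumor, checks the deletion only in part. It ran from 217.6 to 275.9 CPM in neurofibroma, stood at 40.7 and 35.9 CPM in paraspinal subgroup 2 and 89.9 and 88.1 CPM in subgroup 1, and at 30.7, 22.5, 25.5 and 26.5 CPM in GEM-PNST. The Nf1 change against neurofibroma was -3.26 ± 0.14 (log2 fold change ± SE) in GEM-PNST and -1.97 ± 0.22 in paraspinal tumors, and became -0.55 and -0.60 once a trend of each library over gene length and GC content was removed, an alternative chosen after the data were seen. That removal also moved the median over all genes, to 0.53 in GEM-PNST against neurofibroma (7666 genes higher and 4273 lower, beside 5801 and 6318 without it), to 0.09 in paraspinal tumors against neurofibroma and to 0.56 in GEM-PNST against paraspinal tumors (3312 higher and 1394 lower, beside 411 and 1275 without it), so the values given with it are to be read against those medians. Schwann cell markers, 10 genes, had sums of 2387.4 to 10838.2 CPM in neurofibroma libraries, 6980.1 to 13980.3 CPM in the paraspinal ones and 109.2 to 1192.1 CPM in those of GEM-PNST, where Erbb3 and Gfap were each at 0 in 1 library. Sensory neuron markers, 10 genes, had sums of 24.7 to 8365.6 CPM in neurofibroma libraries, 3975.8 to 5914.3 CPM in the paraspinal ones and 4.61 to 223.2 CPM in those of GEM-PNST, where Scn10a was at 0 in all 4. In such bulk samples fewer cells of a type and less RNA per cell cannot be told apart.

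**Figure D1:**
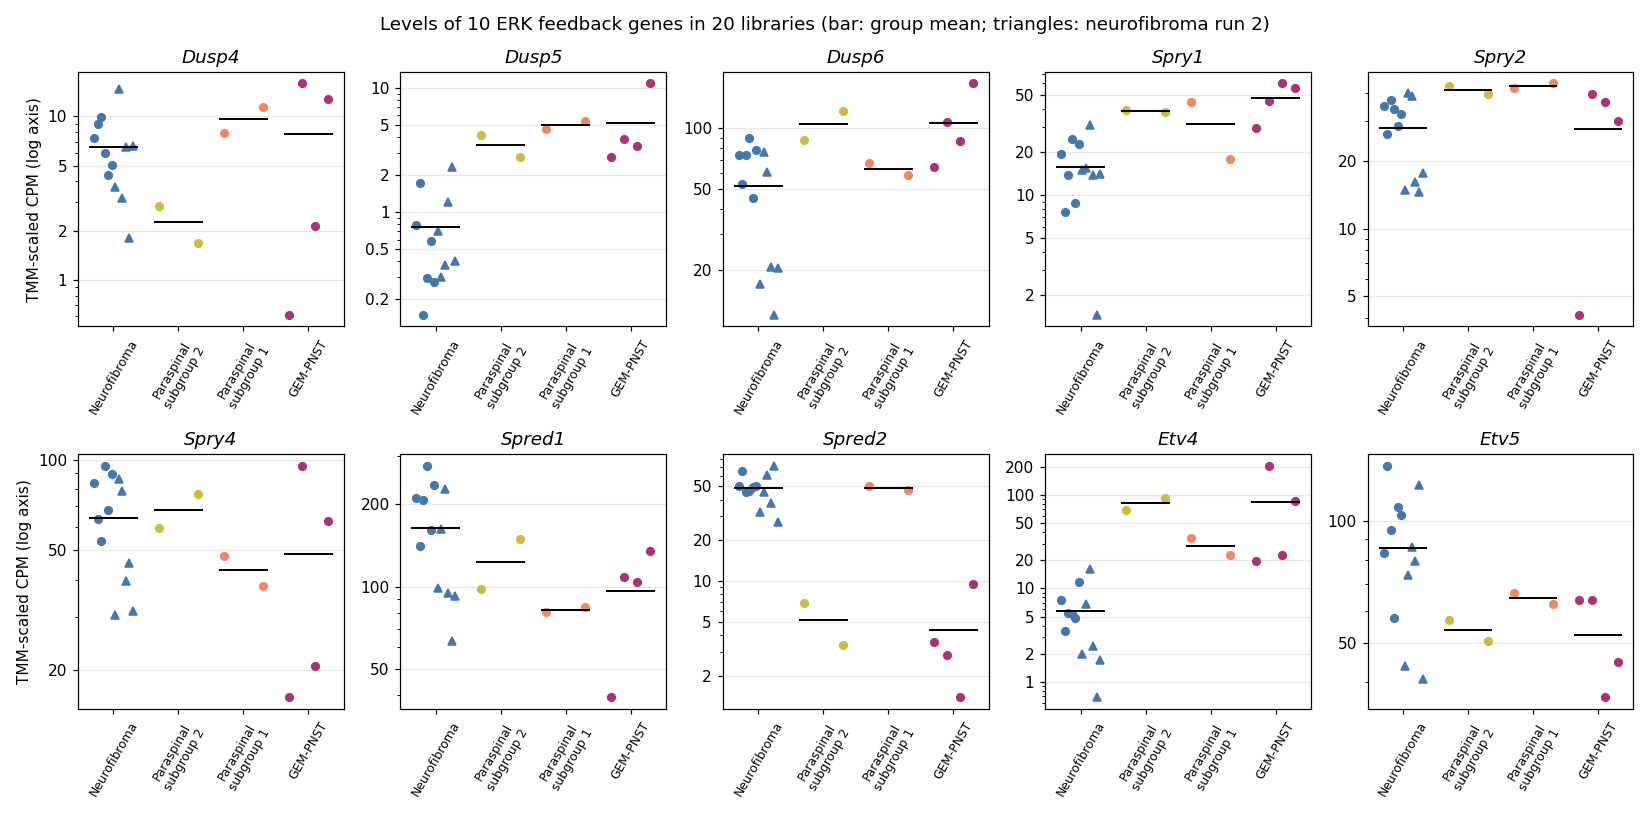
Level of each of the 10 ERK feedback genes in every library, in TMM-scaled CPM on a log axis, by group, with a bar at the group mean and triangles for neurofibroma libraries 7 to 12. Etv4 and Dusp5 lie higher in all 8 paraspinal and GEM-PNST libraries than in any neurofibroma library, and Spred2 is low in the 4 GEM-PNST and both subgroup 2 libraries.

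Per kilobase of exon, which allows genes to be compared, Spred1 was the most abundant of the 10 in neurofibroma at 24.2 ± 10 CPM per kb (SD, n = 12), ahead of Etv5 at 20.9 ± 7.23 and Dusp6 at 16.5 ± 8.88 CPM per kb, gaps smaller than those spreads. In paraspinal tumors Dusp6 led at 26.8 ± 8.9 CPM per kb (SD, n = 4), followed by Spry2 at 20.3 ± 0.89 and Etv4 at 17.6 ± 10.4. In GEM-PNST Dusp6 led at 33.9 ± 14 CPM per kb (SD, n = 4), followed by Etv4 at 26.9 ± 27.9 and Spry1 at 16.3 ± 4.68. By this measure Etv4 ranked 9 of the 10 in neurofibroma, 3 in paraspinal tumors and 2 in GEM-PNST, while Spred2 ranked 6 in neurofibroma, 8 in paraspinal tumors and 10 in GEM-PNST. Without GEM-PNST library 2 Etv4 averaged 13.8 ± 12.1 CPM per kb there (SD, n = 3), beside 16.6 ± 5.7 for Spry1 and 13.7 ± 7.2 for Spred1. Dusp5 was the lowest of the 10 in neurofibroma, at 0.307 ± 0.27 CPM per kb, and Dusp4 was among the 3 lowest in every stage.

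Dusp5 encodes a nuclear phosphatase that acts on ERK and is induced by it, and lies at chr19:53529109-53542431 (GRCm38, + strand). It ran from 0.148 to 2.32 CPM (median 0.494) in the 12 neurofibromas, and was at 4.14 and 2.78 CPM in libraries 1 and 2 of paraspinal subgroup 2, at 4.63 and 5.41 CPM in those of subgroup 1 and at 2.78, 3.90, 3.38 and 10.8 CPM in GEM-PNST libraries 1 to 4. All 8 paraspinal and GEM-PNST libraries lay above the highest neurofibroma, and the neurofibroma values rest on only 2 to 27 reads a library. The rise was 2.74 ± 0.56 in GEM-PNST (edgeR adjusted p = 0.000356) and 2.48 ± 0.50 in paraspinal tumors (adjusted p = 0.000433). Of all genes tested, 21.3% stood above neurofibroma without overlap in GEM-PNST and 18.4% in paraspinal tumors. Against neurofibroma run 1 alone the log2 fold change of Dusp5 was 3.02 in GEM-PNST and 2.67 in paraspinal tumors, and against run 2 alone 2.53 and 2.24, each past the threshold. An antisense gene, AC137853.2, overlaps Dusp5, and no source used here says whether counting was by strand, so reads of these 2 genes cannot be told apart. The promoter window printed for Dusp5 is the one with adjacent CArG boxes.

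Dusp6, the gene of the cytoplasmic ERK phosphatase and the most abundant of these 10 per kilobase in paraspinal and GEM-PNST tumors, lies at chr10:99263231-99267489 (+ strand). It ran from 12 to 89.3 CPM (median 57.1) in neurofibroma, and was at 87.3 and 121.6 CPM in paraspinal subgroup 2, 67.2 and 59.0 CPM in subgroup 1 and 64.4, 107.4, 86.3 and 166.4 CPM in GEM-PNST. Paraspinal and GEM-PNST libraries overlapped neurofibroma, and GEM-PNST library 4 was the highest of all 20. The difference was 1.01 ± 0.45 in GEM-PNST (edgeR adjusted p = 0.0524) and 0.69 ± 0.44 in paraspinal tumors (adjusted p = 0.188), so Dusp6 missed the threshold in both. The GEM-PNST value moved across the threshold with the neurofibromas it was set against: it was 1.60 against run 2 (adjusted p = 0.0249) and 0.61 against run 1 (adjusted p = 0.0866). It also passed after removal of the length and GC trend (1.46, adjusted p = 0.00749) and without GEM-PNST library 1 (adjusted p = 0.0415) or neurofibroma library 4 (0.0366). With no library left out, edgeR with all 20 libraries in 1 fit called it too (adjusted p = 0.0341).

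Dusp4, another nuclear phosphatase of the family, at chr8:34807297-34819894 (+ strand), was the most uneven of the 3. It ran from 1.81 to 14.6 CPM (median 6.24) in neurofibroma, and was at 2.82 and 1.68 CPM in paraspinal subgroup 2, 7.94 and 11.4 CPM in subgroup 1 and 0.61, 15.9, 2.14 and 12.7 CPM in GEM-PNST. GEM-PNST library 2 lay above all 12 neurofibromas, library 4 below the highest alone, and libraries 1 and 3 near the lowest neurofibroma or below it. The differences from neurofibroma were 0.25 ± 0.60 in GEM-PNST and -0.13 ± 0.49 in paraspinal tumors, both well inside the spread between libraries (edgeR adjusted p = 0.725 and 0.832). The sign of the GEM-PNST difference turned without library 2 (-0.35) or without library 4 (-0.09).

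Spry1, an inhibitor of receptor tyrosine kinase signalling at chr3:37639947-37644598 (+ strand), rose in both comparisons with neurofibroma. It ran from 1.46 to 30.7 CPM (median 14.5) in neurofibroma, and was at 39.0 and 38.1 CPM in paraspinal subgroup 2, 44.6 and 18.0 CPM in subgroup 1 and 29.2, 45.2, 59.9 and 55.4 CPM in GEM-PNST. GEM-PNST libraries 2 to 4 lay above every neurofibroma, and GEM-PNST library 1 lay just under the highest one. The rise was 1.59 ± 0.43 in GEM-PNST (edgeR adjusted p = 0.00307), with 1.54 against neurofibroma run 1 and 1.65 against run 2. In paraspinal tumors it was 1.16 ± 0.43 (adjusted p = 0.0288), with 1.02 against run 1 (adjusted p = 0.0429) and 1.22 against run 2 (adjusted p = 0.0844). The paraspinal call was lost without subgroup 1 library 1 (adjusted p = 0.0737), without subgroup 2 library 1 (0.0722) and without subgroup 2 library 2 (0.0596). With the length and GC trend removed neither rise passed: 0.88 in GEM-PNST (adjusted p = 0.0788) and 0.11 in paraspinal tumors (adjusted p = 0.859). Gm42922, an unverified gene model on the other strand, overlaps Spry1.

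Spry2, the second Sprouty gene (chr14:105891947-105896819, - strand), ran from 14.5 to 40.1 CPM (median 30.3) in neurofibroma. It was at 42.9 and 39.8 CPM in paraspinal subgroup 2, 42.2 and 44.2 CPM in subgroup 1 and 4.14, 39.8, 36.5 and 30.0 CPM in GEM-PNST. Paraspinal libraries lay within 39.8 to 44.2 CPM, 3 of the 4 above the highest neurofibroma, and GEM-PNST library 1 was the lowest of all 20. In GEM-PNST against paraspinal tumors Spry2 was the 1 gene of the 10 whose libraries did not overlap, beside 27.6% of all genes, and it did not pass the test (-0.67 ± 0.58, edgeR adjusted p = 0.446). That separation was smaller than the rounding, as GEM-PNST library 2 and subgroup 2 library 2 were both at 39.8 CPM. The differences from neurofibroma were -0.04 ± 0.42 in GEM-PNST (edgeR adjusted p = 0.94) and 0.59 ± 0.26 in paraspinal tumors (adjusted p = 0.0609). The paraspinal value passed without neurofibroma library 9 (adjusted p = 0.0451) and with the length and GC trend removed (1.09, adjusted p = 0.00255).

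Spry4, the third Sprouty gene (chr18:38586247-38601415, - strand), ran from 30.5 to 95.1 CPM (median 65.7) in neurofibroma, and was at 59.4 and 77.0 CPM in paraspinal subgroup 2, 47.8 and 38.2 CPM in subgroup 1 and 16.3, 95.5, 20.6 and 62.7 CPM in GEM-PNST. GEM-PNST libraries 1 and 3 were the lowest of all 20 and library 2 the highest. The differences from neurofibroma were -0.41 ± 0.42 in GEM-PNST and -0.20 ± 0.30 in paraspinal tumors (edgeR adjusted p = 0.386 and 0.587). Without GEM-PNST libraries 1 and 3 the GEM-PNST sign turned, to 0.30. Short RNA genes on the other strand overlap Spry4.

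Spred2, at chr11:19924375-20024026 (+ strand), encodes a membrane protein that holds neurofibromin near RAS. It ran from 27.1 to 71.1 CPM (median 48.1) in neurofibroma, and was at 6.86 and 3.40 CPM in paraspinal subgroup 2, 50.6 and 46.9 CPM in subgroup 1 and 3.53, 2.87, 1.39 and 9.55 CPM in GEM-PNST. All 4 GEM-PNST libraries and both subgroup 2 libraries lay below every neurofibroma, and both subgroup 1 libraries lay near the neurofibroma median. The fall in GEM-PNST was -3.52 ± 0.45 (edgeR adjusted p = 2.7e-06), to a mean of 4.33 ± 3.59 CPM (SD, n = 4) against 48.5 ± 12.7 CPM in neurofibroma (SD, n = 12), and 25.2% of all genes lay below neurofibroma without overlap. It was -3.58 against neurofibroma run 1 and -3.43 against run 2, -3.11 after removal of the length and GC trend, and it passed in all 17 alternatives.

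Paraspinal tumors as a stage did not pass for Spred2 (-0.86 ± 0.50, edgeR adjusted p = 0.15), and their mean of 26.9 ± 25.3 CPM (SD, n = 4) described none of the 4 libraries. limma-voom (adjusted p = 0.0473) and edgeR with all 20 libraries in 1 fit (0.00125) called that difference. Subgroup 2 alone was -3.29 from neurofibroma (adjusted p = 6.46e-06) and subgroup 1 alone 0.03 (adjusted p = 0.949). The sample codes of the 2 subgroup 2 libraries differ in a single letter, so these libraries may be from 1 animal. Subgroup 2 against subgroup 1 gave -3.26 ± 0.95 with an adjusted p of 0.287, in a comparison where edgeR called 0 genes and 2100 had an unadjusted p under 0.05. DESeq2 (adjusted p = 0.00739), limma-voom (0.00129) and edgeR with all 20 libraries in 1 fit (0.0049) each called that difference. GEM-PNST against paraspinal tumors gave -2.70 ± 0.99 (edgeR adjusted p = 0.105), with -3.52 against subgroup 1 alone (adjusted p = 0.0474) and -0.27 against subgroup 2 alone (adjusted p = 0.926). DESeq2 (adjusted p = 0.0161) and the fit of all 20 libraries (0.00247) also called Spred2 between GEM-PNST and paraspinal tumors, where they called 4650 and 7060 of all genes.

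Schwann cell and sensory neuron markers were also low in GEM-PNST, and their part in the GEM-PNST value was not tested. In the paraspinal subgroups the Schwann cell sums were 7552.1 and 10541.0 CPM in subgroup 2, against 6980.1 and 13980.3 CPM in subgroup 1, and the sensory neuron sums were 3975.8 and 4383.5 CPM in subgroup 2, against 4326.3 and 5914.3 CPM in subgroup 1. Fibroblast sums were 16181.2 and 12223.1 CPM in subgroup 2, against 9314.4 and 5876.4 CPM in subgroup 1, macrophage sums were 1478.9 and 1207.9 CPM against 745.4 and 278.9 CPM, and cycling cell sums were 244.8 and 112.4 CPM against 40.9 and 35.5 CPM. The part of these in the Spred2 difference was not tested.

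**Figure D2:**
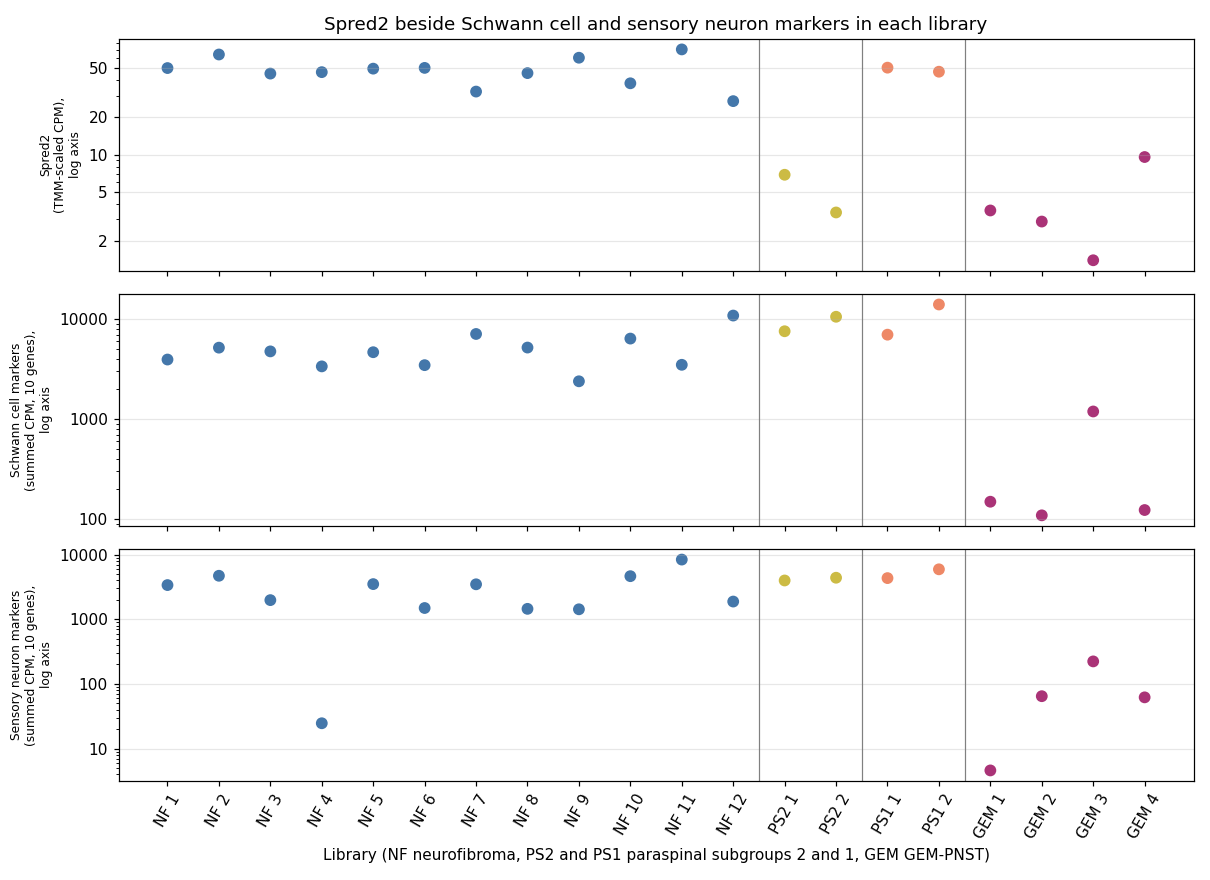
Spred2 in TMM-scaled CPM (top), the summed CPM of 10 Schwann cell markers (middle) and of 10 sensory neuron markers (bottom) in each of the 20 libraries, all on log axes, with lines between the groups. Spred2 is at 6.86 and 3.40 CPM in paraspinal subgroup 2, against 50.6 and 46.9 CPM in subgroup 1, and both marker sums are lower in every GEM-PNST library than in every paraspinal library.

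Spred1, the paralog of Spred2 with the same role (chr2:117121374-117182279, + strand), passed in neither comparison with neurofibroma. It ran from 63.1 to 276.7 CPM (median 162.3) in neurofibroma, and was at 98.2 and 148.7 CPM in paraspinal subgroup 2, 80.6 and 84.0 CPM in subgroup 1 and 39.4, 108.4, 103.5 and 135.3 CPM in GEM-PNST. The groups overlapped, with GEM-PNST library 1 the lowest of all 20. In the paraspinal subgroups Spred1 was higher in subgroup 2, the subgroup with low Spred2, by 0.57 ± 0.58 (edgeR adjusted p = 0.768). The differences from neurofibroma were -0.78 ± 0.39 in GEM-PNST and -0.68 ± 0.34 in paraspinal tumors (adjusted p = 0.0771 and 0.101). Against neurofibroma run 1 alone both passed, at -1.11 (adjusted p = 0.0152) and -1.09 (adjusted p = 0.00501), and against run 2 alone neither did, at -0.36 and -0.26. RLE factors (adjusted p = 0.0359) and DESeq2 (0.0165) also called the fall in GEM-PNST, and DESeq2 the fall in paraspinal tumors (0.0399). With the length and GC trend removed the signs turned, to 0.82 in GEM-PNST (adjusted p = 0.0439) and 0.45 in paraspinal tumors. The medians over all genes were then 0.53 and 0.09. It was the 1 alternative of 17 and of 18 in which the sign turned, and because of it no direction is given for Spred1.

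Etv4 rose in both comparisons with neurofibroma. It encodes an ETS factor of the PEA3 group and lies at chr11:101769742-101785371 (- strand). It ran from 0.688 to 16.0 CPM (median 5.04) in neurofibroma, and was at 68.2 and 93.4 CPM in paraspinal subgroup 2, 34.4 and 22.5 CPM in subgroup 1 and 19.5, 204.7, 23.0 and 86.3 CPM in GEM-PNST. All 8 libraries lay above the highest neurofibroma, and GEM-PNST library 2 was the highest of all 20. The rise was 3.85 ± 0.62 in GEM-PNST (edgeR adjusted p = 3.37e-05) and 3.26 ± 0.53 in paraspinal tumors (adjusted p = 4.74e-05), past the threshold in all 17 and all 18 alternatives. The weakest of these alternatives passed narrowly, with an adjusted p of 0.0413 in GEM-PNST and 0.0476 in paraspinal tumors. Without GEM-PNST library 2 the GEM-PNST value was 2.90 (adjusted p = 0.000569). The mean was 5.66 ± 4.46 CPM in neurofibroma (SD, n = 12), 54.6 ± 32.3 CPM in paraspinal tumors and 83.4 ± 86.5 CPM in GEM-PNST (SD, n = 4 each). Against neurofibroma run 1 alone the GEM-PNST value was 3.70 and the paraspinal value 3.02, and against run 2 alone they were 4.06 and 3.45. With the length and GC trend removed the paraspinal value was 1.94. Between GEM-PNST and paraspinal tumors Etv4 differed by 0.52 ± 0.78 (adjusted p = 0.675), and the sign turned without GEM-PNST library 2 (-0.37).

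Etv5, the closest relative of Etv4 in the list (chr16:22381309-22439719, - strand), went the other way. It ran from 40.6 to 136.8 CPM (median 84.7) in neurofibroma, and was at 56.8 and 50.6 CPM in paraspinal subgroup 2, 66.4 and 62.4 CPM in subgroup 1 and 63.6, 63.6, 36.7 and 44.9 CPM in GEM-PNST. The groups overlapped, with every paraspinal and GEM-PNST library below the neurofibroma median. The fall in GEM-PNST was -0.75 ± 0.30 (edgeR adjusted p = 0.036), with -0.90 against neurofibroma run 1 (adjusted p = 0.0111) and -0.53 against run 2 (adjusted p = 0.197). The call was lost without GEM-PNST library 3 (adjusted p = 0.113), without library 4 (0.0903) and with the length and GC trend removed (-0.50, adjusted p = 0.167). The paraspinal difference was -0.54 ± 0.27 (adjusted p = 0.0942) and passed against run 1 alone (-0.79, adjusted p = 0.00604).

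**Figure D3:**
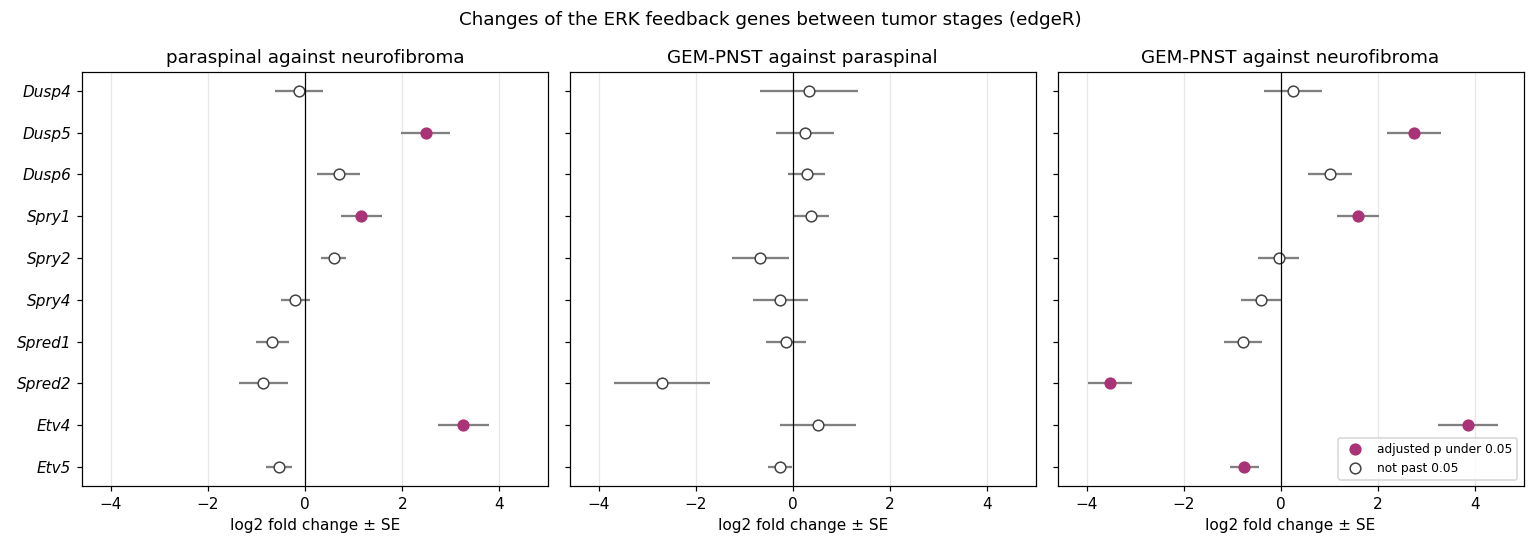
Log2 fold change with its SE for the 10 genes in 3 comparisons of stages, with filled points for an edgeR adjusted p under 0.05. Dusp5, Spry1 and Etv4 are filled to the right of 0 in both comparisons with neurofibroma, Spred2 and Etv5 are filled to the left in GEM-PNST against neurofibroma, and no point is filled in GEM-PNST against paraspinal tumors.

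As a list the 10 genes had no common direction. Their median log2 fold change was 0.10 in GEM-PNST against neurofibroma, beside -0.14 over all genes tested, 0.23 in paraspinal tumors against neurofibroma, beside -0.02, and 0.05 in GEM-PNST against paraspinal tumors, beside 0.00. Between GEM-PNST and paraspinal tumors every gene but Spred2 differed by less than 0.70 on the log2 scale: Dusp4 by 0.32 ± 1.01, Dusp5 by 0.25 ± 0.59, Dusp6 by 0.28 ± 0.38, Spry1 by 0.38 ± 0.37, Spry2 by -0.67 ± 0.58, Spry4 by -0.26 ± 0.56, Spred1 by -0.15 ± 0.41, Etv4 by 0.52 ± 0.78 and Etv5 by -0.27 ± 0.24. These errors are wide, and a p that misses the threshold does not show that the stages were alike.

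Within the paraspinal tumors, 8 of the 10 genes did not overlap between subgroup 2 and subgroup 1, beside 69.6% of all genes. Dusp6, Spry4, Spred1 and Etv4 were higher in subgroup 2 (34.6% of all genes were) and Dusp4, Dusp5, Spred2 and Etv5 lower (34.9% were). Dusp4 was at 2.82 and 1.68 CPM in subgroup 2, against 7.94 and 11.4 CPM in subgroup 1 (-2.12 ± 1.40, edgeR adjusted p = 0.607), and Etv4 at 68.2 and 93.4 CPM, against 34.4 and 22.5 CPM (1.49 ± 1.09, adjusted p = 0.657). limma-voom called Dusp4 (adjusted p = 0.0286) and Etv4 (0.0442) beside Spred2 and called 5453 of all genes, where edgeR called 0.

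Within the neurofibromas the spread was large, and 5 of the 10 genes had the same 4 lowest libraries. The share of all genes with these 4 lowest was not counted, so the split is not given as particular to the 10 genes. Dusp6 was at 12, 17.1, 20.5 and 20.7 CPM in libraries 11, 7, 12 and 10, and the next lowest library was at 45.2 CPM. Spry2 (14.5 to 17.7 CPM, next 26.2), Spry4 (30.5 to 45.4 CPM, next 53.7), Spred1 (63.1 to 98.4 CPM, next 141.1) and Etv4 (0.688 to 2.42 CPM, next 3.49) were lowest in the same libraries. All 4 belong to run 2. The other libraries of that run, 8 and 9, whose sample codes share a number and may be from 1 animal, had Dusp6 at 76.2 and 61.2 CPM. The part of run in the low values was not tested. The same 4 libraries had the 4 lowest fibroblast sums, 4330.4, 3963.2, 1607.4 and 4525.3 CPM in libraries 7, 10, 11 and 12, in a range up to 10763.7 CPM, and the 4 lowest macrophage sums, 63.4 to 182.4 CPM in a range up to 961.8 CPM. The part of these in the low values was not tested. Spred2 was lowest in libraries 12, 7 and 10, at 27.1, 32.4 and 37.8 CPM, but highest in library 11, at 71.1 CPM. Dusp5 was also highest in library 11, at 2.32 CPM, and that library had the highest neuron sum (8365.6 CPM), whose part in these values was not tested. The highest value was 23.3 times the lowest for Etv4, 21.0 times for Spry1, 7.41 times for Dusp6 and 2.62 times for Spred2.

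**Figure D4:**
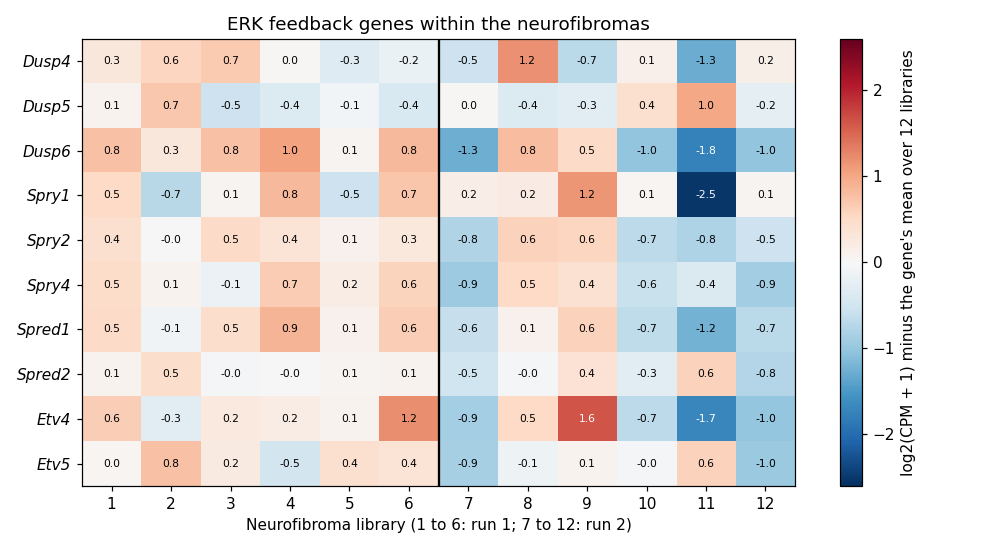
The 10 genes in the 12 neurofibroma libraries, as log2(CPM + 1) minus each gene's mean over these libraries, with a line between the sequencing runs. Libraries 7, 10, 11 and 12 are below the mean for Dusp6, Spry2, Spry4, Spred1 and Etv4, and libraries 8 and 9 of the same run are above it for these 5 genes.

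The genes most like each of these were found over the 12 neurofibroma libraries, on log2 CPM centred within run, with the closest gene taken among those whose log2 CPM averaged 3 or more and ranks given over all 16588 other tested genes. These correlations share libraries that fall into separate sets and are descriptions. Dusp6 was most like S1pr2 (Pearson r = 0.967), with Spry2 at rank 8 of 16588 genes (r = 0.961). Spry2 was most like Tpcn2 (r = 0.97), with Dusp6 at rank 4. Spry4 was most like Hip1 (r = 0.934), Spry1 like Card6 (r = 0.983) and Spred1 like 5430435G22Rik (r = 0.98). Etv4 was most like Trafd1 (r = 0.974), with Spred1 at rank 57. Spred2 was most like Dock4 (r = 0.902), with Etv5 at rank 20 (r = 0.85), and Etv5 was most like Tomm22 (r = 0.953). Dusp4 was most like Pou3f1 (r = 0.881) and Dusp5 like Mrpl19 (r = 0.945), and their nearest members of the list ranked 1526 and 4154. Dusp5 had only 2 to 27 counts a library in neurofibroma, so its correlations and rank rest on few reads.

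Within GEM-PNST, library 1 was the lowest of the 4 for 8 of the 10 genes, and libraries 2 and 4 were the highest for 5 and 4. The shares of all genes lowest or highest in these libraries were not counted. Of all 20 libraries, GEM-PNST library 1 had the fewest genes with a count (15090) and the lowest TMM factor (0.665). The highest value was 26.1 times the lowest for Dusp4, 10.5 times for Etv4 and 9.61 times for Spry2, but 2.05 times for Spry1 and 1.73 times for Etv5. Library 1 had a fibroblast sum of 270.5 CPM, where the other GEM-PNST libraries had 9919.2 to 22822.2 CPM, and the highest cycling cell sum, 896.6 CPM. Library 3 had a salivary and epithelial sum of 9615.9 CPM, where the others had 291.8 to 809.6 CPM. The part of these in the values was not tested. Without libraries 1 and 3, an alternative chosen after the data were seen, Dusp5, Spry1, Spred2 and Etv4 stayed past the threshold against neurofibroma and Dusp6 joined them (adjusted p = 0.043), while Etv5 did not pass (0.148).

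The wider family was listed as 12 relatives of the 10 genes, and 6 rose and 3 (Dusp3, Dusp8 and Etv1) fell in GEM-PNST against neurofibroma, with a median of 1.42, beside -0.14 over all genes. That is 9 of 12 called, near the 73.1% of all genes. Etv1, the remaining PEA3 factor, was opposite to Etv4: it averaged 186.3 ± 36.8 CPM in neurofibroma (SD, n = 12), 42.9 ± 20.7 CPM in paraspinal tumors and 20.1 ± 19.9 CPM in GEM-PNST (SD, n = 4 each). The log2 fold change of Etv1 was -3.24 ± 0.46 in GEM-PNST (edgeR adjusted p = 9.49e-06) and -2.12 ± 0.27 in paraspinal tumors (adjusted p = 3.84e-06), and the GEM-PNST value did not pass with the length and GC trend removed (-0.57, adjusted p = 0.224). Dusp7, another cytoplasmic ERK phosphatase gene, averaged 26.6 ± 7.05 CPM in neurofibroma (SD, n = 12), 30.9 ± 3.76 CPM in paraspinal tumors and 92.6 ± 27.8 CPM in GEM-PNST (SD, n = 4 each). It rose in GEM-PNST against neurofibroma (1.78 ± 0.21, edgeR adjusted p = 1.29e-06) and against paraspinal tumors (1.49 ± 0.25, adjusted p = 0.0114). Dusp2, a nuclear phosphatase gene of immune cells, was at 36.3, 10.5, 31.3 and 18.5 CPM in GEM-PNST, against 0.62 to 3.36 CPM in paraspinal libraries (3.93 ± 0.71, adjusted p = 0.0155), and macrophage sums were 1464.1 to 4187.8 CPM in GEM-PNST against 278.9 to 1478.9 CPM in paraspinal libraries, whose part in the value was not tested. Dusp3, a phosphatase gene of the same family, fell in GEM-PNST against paraspinal tumors (-1.27 ± 0.29, adjusted p = 0.032) and Dusp8 too (-2.77 ± 0.70, adjusted p = 0.0432). In paraspinal tumors against neurofibroma 4 relatives (Dusp2, Dusp8, Spry3 and Spred3) rose and 2 (Dusp16 and Etv1) fell, with a median of 0.17, beside 59.4% of all genes called and a median of -0.02. In GEM-PNST against paraspinal tumors 2 (Dusp2 and Dusp7) rose and 3 (Dusp3, Dusp8 and Spry3) fell, with a median of 0.83, beside 10.2% of all genes called and a median of 0.00.

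Of 24 genes of the RAS-ERK cascade, 7 rose and 13 fell in GEM-PNST against neurofibroma (median -0.50), 9 rose and 9 fell in paraspinal tumors (median -0.12), and 0 rose and 3 (Ksr1, Ksr2 and Mapk3) fell in GEM-PNST against paraspinal tumors (median -0.64). Of all genes 73.1%, 59.4% and 10.2% were called in these comparisons, with medians of -0.14, -0.02 and 0.00. Map2k2, the gene of the ERK kinase MEK2, averaged 18.8 ± 3.69 CPM in neurofibroma (SD, n = 12), 114.1 ± 26.9 CPM in paraspinal tumors and 183.6 ± 45.9 CPM in GEM-PNST (SD, n = 4 each) and rose in both comparisons with neurofibroma. Hras, a RAS gene, rose by 2.22 ± 0.24 in paraspinal tumors (edgeR adjusted p = 4.9e-07). Braf, the gene of a kinase that activates MEK, changed by -2.14 ± 0.20 and Shoc2, a scaffold for RAF activation, by -2.50 ± 0.24 in paraspinal tumors, and the adaptor gene Gab1 by -3.35 ± 0.50 in GEM-PNST against neurofibroma. The change of Nf1, in the same list, shrank with the length and GC trend removed. Values with the trend removed are not given here for the other cascade genes, so their sizes are to be read with that limit. Ksr2, a RAF and MEK scaffold gene, was at 0 counts in 3 of the 4 GEM-PNST libraries. Between GEM-PNST and paraspinal tumors, Mapk3, which encodes ERK1, averaged 301.0 ± 85.7 CPM against 646.2 ± 92.6 CPM (-1.19 ± 0.30, adjusted p = 0.0426), and Ksr1 1.98 ± 1.14 CPM against 21.5 ± 17.3 CPM (-3.50 ± 0.82, adjusted p = 0.0361). That paraspinal mean described neither subgroup, as Ksr1 was at 8.37 and 5.08 CPM in subgroup 2 and 33.5 and 39.2 CPM in subgroup 1.

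Of 16 other genes known to answer to ERK, 10 rose and 2 (Epha4 and Kank1) fell in GEM-PNST against neurofibroma (median 2.19), 8 rose and 2 (Epha4 and Hmga2) fell in paraspinal tumors (median 0.83), and 4 rose and 0 fell in GEM-PNST against paraspinal tumors (median 1.27). Of all genes 73.1%, 59.4% and 10.2% were called in these comparisons, with medians of -0.14, -0.02 and 0.00. Macrophage sums were 63.4 to 961.8 CPM in neurofibroma libraries, 278.9 to 1478.9 CPM in the paraspinal ones and 1464.1 to 4187.8 CPM in those of GEM-PNST. Cycling cell sums were 23.2 to 299.0 CPM, 35.5 to 244.8 CPM and 317.6 to 896.6 CPM in the same order, and the part of both in these counts was not tested. The 4 were Myc, a growth regulator, at 73.9 ± 35.1 CPM in GEM-PNST against 19.0 ± 7.14 CPM in paraspinal tumors (1.87 ± 0.46, edgeR adjusted p = 0.0406), Plk3 (1.81 ± 0.39, adjusted p = 0.0289), Map2k3 (1.59 ± 0.32, adjusted p = 0.0227) and Hmga2. Plaur, the urokinase receptor gene, rose by 4.07 ± 0.34 in GEM-PNST against neurofibroma, and Epha4, an ephrin receptor gene, fell (-3.29 ± 0.76). Fos, an immediate early factor gene, rose by 1.63 ± 0.39 in paraspinal tumors (adjusted p = 0.00162). Hmga2, a chromatin protein gene, was at 6.47 to 10.7 CPM in neurofibroma libraries, 0.266 to 1.46 CPM in the paraspinal ones and 0.0678, 636.9, 26.3 and 421.6 CPM in those of GEM-PNST, and GEM-PNST library 1 was the lowest of all 20; its GEM-PNST values were chosen for mention after they were seen. Between the subgroups 0 genes of the 3 lists passed in edgeR. Without subgroup 1 library 1 the calls between GEM-PNST and paraspinal tumors ended for Dusp2, Dusp3, Dusp8, Ksr1, Mapk3, Myc, Plk3 and Map2k3 (adjusted p from 0.0515 for Dusp2 to 0.119 for Myc), and leaving out other single libraries ended most of them too. Dusp7 passed without any 1 library.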

How the data were processed

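The 20 libraries are nerve tumors of mice, and the deposited table holds raw read counts per gene, whole numbers with no normalization, made by the authors. Per the submitters' processing notes the tools were TopHat, HISAT2 and featureCounts, with mm10; their versions, order and strand setting are not given in the sources used here. Groups follow the labels. The 10 genes and all lists were chosen with earlier results of these data known.

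Counts were analysed in R 4.3.3 with edgeR 4.0.16: genes were kept by filterByExpr (16589 of 24062, holding 95.78% to 99.97% of counts), scaled by TMM factors and tested with the robust quasi-likelihood test, 1 fit per comparison, with Benjamini-Hochberg adjustment over all genes tested and a threshold of 0.05. The fit of the subgroups also held the 4 GEM-PNST libraries, which adds to the estimate of spread. Depth of 9900759 to 24314222 counts a library limits low genes such as Dusp5, and errors cover the spread between libraries. Log2 CPM used a prior count of 2. Levels per kilobase used GENCODE exon lengths, and promoter windows came from RefSeq (GRCm38.p6). From each list up to 4 called genes per comparison are named, by size of change, where log2 CPM averaged 1 or more and groups did not overlap, plus Nf1; the genes called in GEM-PNST against paraspinal tumors among other ERK-responsive genes are given in full. Alternatives were RLE factors, other count filters, DESeq2 1.42.0, limma-voom (limma 3.58.1), a replicate block, all libraries in 1 fit, 1 neurofibroma run or 1 subgroup alone, and leaving out libraries. The scripts were tested on simulated data.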

Additional observations from a re-analysis of the deposited data

Results flagged for a closer look

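Dusp5 in GEM-PNST library 4 was at 10.8 CPM, apart from the other GEM-PNST libraries at 2.78, 3.90 and 3.38 CPM. Its gap to the nearest of them was 0.862 of the group's range, above Dixon's critical value for 4 libraries. It was the 1 library standing apart among 20 groups of 4 examined (10 genes in GEM-PNST and in paraspinal tumors), where chance gives about 1 in 20.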

How the results depend on the processing

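Of the 10 genes 5 were called in GEM-PNST against neurofibroma, 3 in paraspinal tumors against neurofibroma, 0 in GEM-PNST against paraspinal tumors and 0 between the subgroups in edgeR. Of all 16589 genes tested, 12119, 9858, 1686 and 0 were called in the same order. With a replicate block the first count was 3 and the second 1, and all genes called were 7204 and 2762. Correlations of same-numbered GEM-PNST and neurofibroma libraries were -0.06, 0.12, 0.06 and 0.10. Those of same-numbered paraspinal and neurofibroma libraries ran from -0.26 to 0.17. Such correlations cannot show whether samples are paired, and the labels give only a number. The block ended both Dusp5 calls (edgeR adjusted p = 0.0643 in GEM-PNST and 0.103 in paraspinal tumors) and those of Etv5 in GEM-PNST (0.0649) and Spry1 in paraspinal tumors (0.0667). DESeq2 gave 5 in the second comparison (10321 of all genes), 1 in the third (4650) and 1 between the subgroups (1212). Neurofibroma run 1 alone gave 5 in the second (9396 of all genes). All 20 libraries in 1 fit gave 1 in the third (7060 of all genes) and 1 between the subgroups (1231). limma-voom gave 3 between the subgroups (5453) and 2818 of all genes in the third, and subgroup 1 alone gave 1 in the third (1328). With subgroup 2 alone 61 of all genes were called in the third, and without single libraries 507 to 2304.

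Reversed log2 fold changes, each short of the threshold unless given, were as follows. In GEM-PNST against neurofibroma Dusp4 was -0.20 in limma-voom, -0.92 with the block, -0.37 after removal of the length and GC trend and -0.35 to 0.63 without single libraries. Spry2 was 0.01 in limma-voom, 0.51 with the trend removed, 0.20 against run 2, 0.31 without GEM-PNST libraries 1 and 3 and -0.26 to 0.30 without single libraries. Spry4 was 0.03 with the trend removed and 0.30 without GEM-PNST libraries 1 and 3, and Spred1 0.82 with the trend removed (edgeR adjusted p = 0.0439). The median over all genes with the trend removed was 0.53 there, above the Spry2 and Spry4 values with it. In paraspinal tumors against neurofibroma Dusp4 was 0.59 in subgroup 1 and -0.61 to 0.21 without single libraries, Spry4 0.05 in subgroup 2 and 0.09 against run 2, Spred2 0.03 in subgroup 1, and Spred1 0.45 and Plk3 -0.50 with the trend removed. In GEM-PNST against paraspinal tumors the block gave -0.41 for Dusp4, -0.50 for Dusp5, -0.14 for Dusp6 and -0.01 for Spry1. There the trend gave 0.36 for Spry4, 0.41 for Spred1, 0.33 for Etv5 and 0.09 for Nf1. Each of these lay below the median over all genes with the trend removed, 0.56, so none rose relative to it. Subgroup 1 alone gave -0.35 for Dusp4, 0.14 for Spry4 and 0.21 for Spred1, and subgroup 2 alone -0.01 for Etv4. Leaving out GEM-PNST libraries 1 and 3 gave 0.45 for Spry4 and 0.19 for Spred1, and limma-voom 0.06 for Spred1. Without single libraries Dusp4 ran from -0.23 to 0.88 there, Dusp5 from -0.39 to 0.47, Dusp6 from -0.02 to 0.51, Spry4 from -0.77 to 0.05, Spred1 from -0.35 to 0.13 and Etv4 from -0.37 to 0.91, and Spry1 between the subgroups from -0.20 to 1.09. The cause was not tested. Depth limits Dusp5 in neurofibroma, with 2 to 27 counts a library.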

Other observations

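Spry3, a Sprouty gene outside the rule for named genes and chosen after its values were seen, had 0 counts in all 12 neurofibroma and all 4 GEM-PNST libraries. In paraspinal tumors it was at 3.70 and 2.34 CPM in subgroup 2 and at 3.60 and 5.81 CPM in subgroup 1. With each group at 0 set to 3 counts in all, on TMM-scaled library totals, Spry3 was at least 204-fold higher in paraspinal tumors than in neurofibroma and at least 82.8-fold lower in GEM-PNST than in paraspinal tumors.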
